A study of Mus musculus with 36 samples.

Results

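Tropomyosins are coiled-coil proteins that lie along the actin thin filament. The mouse has 4 tropomyosin genes, Tpm1, Tpm2, Tpm3 and Tpm4, and their RNA was followed here over 5 muscles of mice transgenic for alpha tropomyosin slow and of wild-type mice, in a series described as a mouse model of nemaline myopathy. Members were the probe sets of the Affymetrix MG_U74Av2 array whose annotation gives 1 of these 4 symbols alone. They cover 4 of the 8251 genes that have a probe set of their own on the array. There were 6 such probe sets, and 5 of them were among the 9322 that passed the filter on low signals. Tpm1 was read by 160532_at, Tpm2 by 100605_at and 161320_r_at, Tpm3 by 93266_at and 93265_at, and Tpm4 by 95542_at. A seventh probe set, which carries Tpm4 with another symbol, was left out.

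The groups were transgenic and wild-type muscles at 10 and at 7 months of age: the diaphragm, and from the limb the extensor digitorum longus, plantaris, gastrocnemius and tibialis anterior. Each of the 36 arrays (18 per genotype) took snap-frozen muscle RNA pooled from 3 to 5 mice. Per genotype, 4 arrays read each of diaphragm, tibialis anterior and gastrocnemius, while extensor digitorum longus and plantaris had 3, with 1 at 10 months. The labels name neither the strain nor the transgene's promoter, species or sequence, so a mouse probe set for Tpm3 need not read the transgene and is no check of the genotype. Nothing says that the 2 arrays of a group came from separate pools of mice, and p-values measure the spread between arrays.

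In striated muscle tropomyosin covers the myosin binding sites of actin at rest and moves aside when calcium binds to troponin. Fibre types differ in the tropomyosin they make. In mammals Tpm1 encodes alpha tropomyosin of fast and cardiac muscle, Tpm2 encodes beta tropomyosin, found in fast and slow fibres, and Tpm3 encodes the slow alpha form, which is largely limited to slow fibres. Tpm4 encodes a form of the cytoskeleton. In humans, variants of TPM2 and TPM3 cause nemaline myopathy, in which rods of thin filament and Z-disc proteins form in the fibre.

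Tropomyosin genes have alternative starts. An upstream start gives long transcripts, which include the striated muscle forms, and an internal start gives short transcripts of the cytoskeleton. RefSeq (GRCm38.p6) places Tpm3 at chr3:90072651-90100902 and the table of starts holds both of its starts, as windows of 300 bases from 250 bases before the start to 50 after it. They are shown with that of Tpm2 (gene at chr4:43513726-43523583) because the results turn on these 2 genes. The Tpm3 windows are chr3:90072401-90072700 (upstream start) and chr3:90079271-90079570 (internal start), both on the plus strand, and the Tpm2 window is chr4:43523505-43523804 on the minus strand. Capitals mark the E-box CANNTG, a motif bound by myogenic factors of the MyoD family among many others.
Tpm3 upstream start: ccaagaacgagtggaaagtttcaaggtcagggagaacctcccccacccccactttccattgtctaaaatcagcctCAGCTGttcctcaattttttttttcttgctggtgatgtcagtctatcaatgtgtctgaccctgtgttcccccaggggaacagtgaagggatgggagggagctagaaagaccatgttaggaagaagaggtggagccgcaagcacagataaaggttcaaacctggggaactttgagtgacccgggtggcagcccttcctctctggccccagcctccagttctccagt
Tpm3 internal start: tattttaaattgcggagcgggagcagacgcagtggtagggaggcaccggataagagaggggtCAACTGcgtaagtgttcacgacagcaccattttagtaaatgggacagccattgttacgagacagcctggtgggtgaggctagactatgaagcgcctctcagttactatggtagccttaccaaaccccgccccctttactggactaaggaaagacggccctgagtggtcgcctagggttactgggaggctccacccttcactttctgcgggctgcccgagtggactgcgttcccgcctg
Tpm2: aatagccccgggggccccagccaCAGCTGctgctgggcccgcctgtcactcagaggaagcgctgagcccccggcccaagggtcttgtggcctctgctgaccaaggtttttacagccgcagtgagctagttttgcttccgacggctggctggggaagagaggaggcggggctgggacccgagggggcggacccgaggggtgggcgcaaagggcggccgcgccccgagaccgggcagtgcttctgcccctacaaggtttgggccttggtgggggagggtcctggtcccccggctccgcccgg
Each window held 1 E-box, which begins at base 76, base 63 and base 24 of the 3 windows in the order shown. Such a match is common, since 72.3% of the 32851 windows of this length in the table hold an E-box on either strand. The GC box GGGCGG (both strands searched) occurred 0 times at the upstream Tpm3 start, 1 time at the internal one and 3 times at Tpm2, and 35.7% of all windows hold it. The MCAT motif CATTCC (14.7% of all windows), the sequence TATAAA (13.6%), the MEF2 site (0.557%) and the CArG box (1.63%) were not matched in these 3 windows. No matched motif overlapped another in these windows. These matches are descriptions of the letters. Which of the starts the probe sets follow is not known, since the probes' sequences were not used here.

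Signals are MAS5 intensities scaled to a trimmed mean of 500 on each array, and a log2 change is a difference of log2(signal + 50). The arrays fall into 2 sets. The first array of each group (20 arrays) has a filled instrument record, and the second (16 arrays) an empty one. The record of the array labelled transgenic gastrocnemius, 7 months, replicate 1 names plantaris, and that of wild-type gastrocnemius, 7 months, replicate 1 gives another age. The raw file of the transgenic extensor digitorum longus array at 10 months was only partly recovered, per its label. Gapdh, read by probe sets at both ends of its RNA, had 3-prime over 5-prime ratios of 3.32 in wild-type gastrocnemius (10 months) and 3.69 in wild-type plantaris (7 months), both of the second set, and at most 1.80 on the other arrays. All 7 of the 8 skeletal muscle markers found on the array exceeded a mean of 100 in every muscle and genotype. Of the 7 hepatocyte markers found (of 10), the summed signal ran between 4254 and 75894 on transgenic and between 35339 and 105340 on wild-type diaphragm arrays, against 255.8 to 1434 on limb muscle arrays. The values for the diaphragm below stand beside this difference.

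Tpm3, the gene of the slow alpha form, had by far the widest range between muscles. Its signal on probe set 93266_at was lower on every tibialis anterior array than on any array of another muscle. In tibialis anterior it was 4182 and 2538 on transgenic arrays at 10 months and 1607 and 2165 at 7 months, against 830.5 and 2083 on wild-type arrays at 10 months and 1088 and 1904 at 7 months. In plantaris it was 25438 on the transgenic array at 10 months and 16551 and 26228 at 7 months, against 15364 on the wild-type array at 10 months and 17169 and 24280 at 7 months. The lowest plantaris array stood above the highest tibialis anterior array, although plantaris is also a muscle of mostly fast fibres in the mouse. How large a share of all tested probe sets separates muscles in this way, here and below, was not computed.

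The means of the other 3 muscles lay between these in both genotypes, although 1 transgenic diaphragm array exceeded every plantaris array. In gastrocnemius the Tpm3 signal was 14278 and 19185 on transgenic arrays at 10 months and 12597 and 19497 at 7 months, against 11434 and 20249 on wild-type arrays at 10 months and 12410 and 21575 at 7 months. In diaphragm it was 16391 and 30550 on transgenic arrays at 10 months and 13594 and 14043 at 7 months, against 11816 and 17234 on wild-type arrays at 10 months and 7515 and 19353 at 7 months. In extensor digitorum longus it was 12798 on the transgenic array at 10 months and 4634 and 18429 at 7 months, against 8193 on the wild-type array at 10 months and 7445 and 9840 at 7 months. The genotypes overlapped in every one of the 5 muscles, and the pair of transgenic extensor digitorum longus arrays at 7 months had the largest ratio within a group. The second array of a group gave the higher Tpm3 signal in 15 of 16 groups, by a median of 0.65 on the log2 scale. A second array at least as often higher was seen in 5.03% of all tested probe sets.

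**Figure D1:**
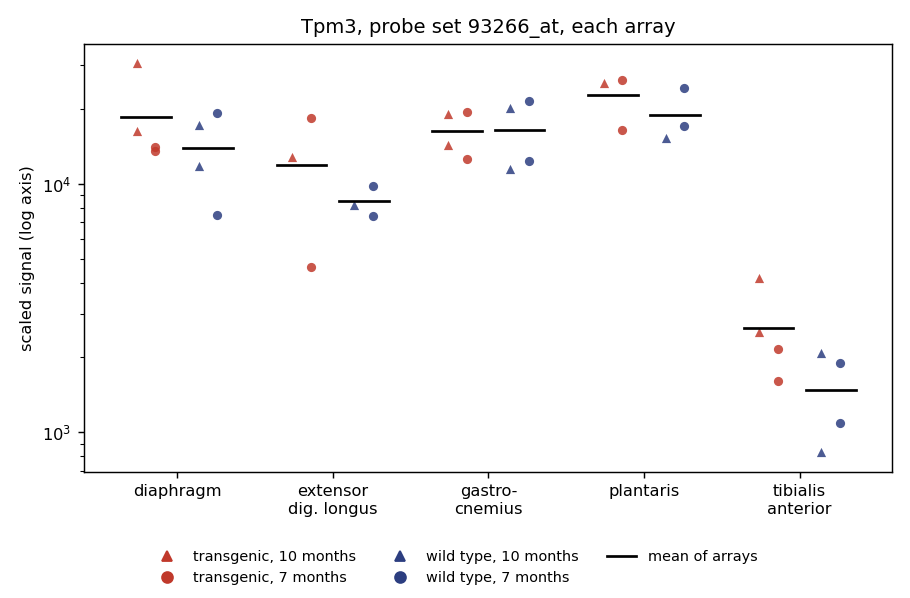
Scaled signal of Tpm3 (probe set 93266_at) on each of the 36 arrays, on a log axis, by muscle. Transgenic arrays (red) stand left of wild-type arrays (blue), triangles are 10 months and circles 7 months, and black lines are means over arrays. Tibialis anterior arrays lie between 830.5 and 4182, below all arrays of the other muscles.

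The difference between muscles passed the test in both genotypes. The moderated F for the 5 muscles was 21.7 in transgenic (adjusted p = 7.51e-06) and 31.4 in wild type (adjusted p = 9.29e-08), where 5.08% of all tested probe sets passed in transgenic and 15.1% in wild type. Relative to the mean of the other 4 muscles, Tpm3 in tibialis anterior differed by -2.68 ± 0.30 in transgenic and by -3.24 ± 0.30 in wild type (log2 ± SE), that is 6.39-fold less in transgenic and 9.46-fold less in wild type. On the filled set alone the F was 20.1 (adjusted p = 0.00329) in transgenic and 37.8 (adjusted p = 5.74e-05) in wild type, and on the empty set it was 32.7 in transgenic (adjusted p = 0.00684) and 35.4 in wild type (adjusted p = 0.0037). Without the gastrocnemius array whose record names plantaris it was 21.7 (adjusted p = 1.3e-05) in transgenic. The call also held with hepatocyte signal as a covariate (adjusted p = 0.000122 in transgenic and 1.21e-06 in wild type).

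In transgenic mice the order was plantaris, diaphragm, gastrocnemius, extensor digitorum longus and tibialis anterior, and in wild type gastrocnemius stood before diaphragm. Among neighbours in these orders, extensor digitorum longus over tibialis anterior was the one step whose array ranges did not overlap, at 2.07 (95% interval 1.24 to 2.91) in transgenic and 2.60 (1.76 to 3.44) in wild type. The next largest step, gastrocnemius over extensor digitorum longus in transgenic (0.61, interval -0.23 to 1.45) and diaphragm over extensor digitorum longus in wild type (0.60, interval -0.24 to 1.44), was within the spread of the arrays. The steps among plantaris, diaphragm and gastrocnemius were 0.33 and 0.13 in transgenic and 0.22 and 0.27 in wild type, with intervals that span 0. Diaphragm over the mean of the 4 limb muscles was 0.83 ± 0.30 in transgenic (adjusted p = 0.0924) and 0.76 ± 0.30 in wild type (adjusted p = 0.0735), which missed the threshold that 8.16% of probe sets passed in transgenic and 20.8% in wild type. The wild-type difference was 0.60 on the filled set (adjusted p = 0.196), 0.86 on the empty set (adjusted p = 0.113) and -0.39 with the hepatocyte covariate (adjusted p = 0.875). It passed with the replicate number, and thus the set of arrays, as a replicate block (0.68, adjusted p = 0.0178), with a random block for shared mice (0.72, adjusted p = 0.0171), with quantile normalization (0.89, adjusted p = 0.0198) and with array weights (0.93, adjusted p = 0.0195).

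Over the 20 group means of log2 signal, the 3 genes with the profile most like that of Tpm3 were all genes of slow fibres. Pearson's r was 0.984 for Atp2a2, the calcium pump of slow fibres and heart, 0.974 for Tnni1, slow troponin I, and 0.973 for Tnnc1, troponin C of slow and cardiac muscle. Without the 4 tibialis anterior groups, the remaining 16 means gave 0.917, 0.911 and 0.948. The group means share arrays across the genes, so these values describe likeness and carry no test. As with Tpm3, each of the 3 had its highest wild-type mean in plantaris and its lowest in tibialis anterior. Since they were chosen by likeness over these same means, this is no separate result. Their ranges over wild-type muscles were 4.72 (Atp2a2), 4.20 (Tnni1) and 5.96 (Tnnc1) on the log2 scale.

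**Figure D2:**
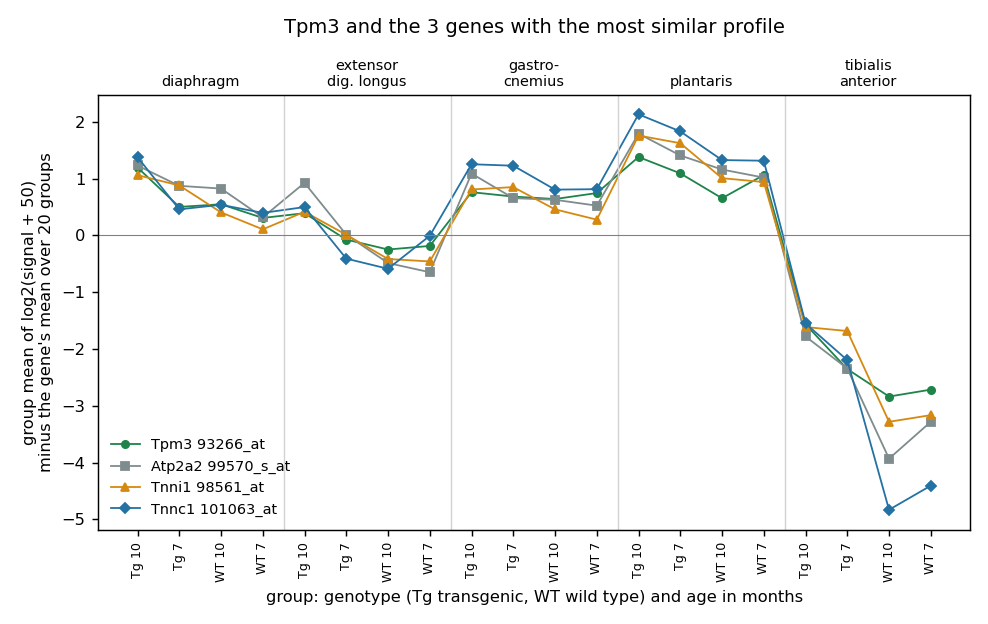
Group means of log2(signal + 50) of Tpm3, Atp2a2, Tnni1 and Tnnc1 in the 20 groups, each less that gene's mean over the groups. Groups run by muscle, with transgenic (Tg) before wild type (WT) and 10 before 7 months, and the 4 lines fall together in tibialis anterior.

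Between genotypes, Tpm3 did not pass the threshold in any of the 5 muscles or on average. Averaged over the muscles the change was 0.36 ± 0.18 (95% interval 0.00 to 0.73, adjusted p = 0.288). In this comparison 1.17% of all probe sets passed, and 1613 had an unadjusted p under 0.05 in limma. Of the 18 transgenic arrays, 14 exceeded the mean of wild type in the same muscle. For such counts of arrays, here and below, the share of all probe sets was not computed. The change was 0.82 ± 0.37 in tibialis anterior (adjusted p = 0.777; 0.150% of probe sets passed), where each of the 4 transgenic arrays exceeded the mean of wild type and the ranges overlapped. It was 1.40 on the filled set (adjusted p = 0.705) and 0.23 on the empty set (adjusted p = 0.809) there. In the other muscles the change was 0.42 ± 0.37 in diaphragm, 0.29 ± 0.43 in extensor digitorum longus, 0.26 ± 0.43 in plantaris and 0.03 ± 0.37 in gastrocnemius (0.17 without the gastrocnemius array whose record names plantaris). No probe set passed in gastrocnemius or plantaris (0%, although 209 and 174 had an unadjusted p under 0.05 in limma), and 0.0107% did in extensor digitorum longus. The moderated F for a difference of the genotype change between muscles was 0.60 for Tpm3 (adjusted p = 1; 0.0322% of probe sets passed).

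Some slow fibre genes other than Tpm3 rose in transgenic muscle. Of the 10 slow fibre genes tested (of 12 listed, Tpm3 not among them), 5 rose on average over muscles and 0 fell, with a median change of 0.70 against -0.03 over all tested probe sets. In tibialis anterior 6 of the 10 rose and 0 fell, with a median of 1.56 against -0.03. There the change was 3.24 ± 0.37 for Myh7, the slow myosin heavy chain (adjusted p = 5.48e-06), and 3.21 ± 0.25 for Myl2, its regulatory light chain (adjusted p = 3.53e-09). It was 2.75 ± 0.49 for Tnnc1 (adjusted p = 0.00765) and 2.54 ± 0.26 for Tnnt1, slow troponin T (adjusted p = 7.08e-07). Tnni1 had 1.57 ± 0.27 (adjusted p = 0.00409) and Atp2a2 1.54 ± 0.27 (adjusted p = 0.00606), beside the 0.82 ± 0.37 of Tpm3. The 4 that did not pass had 0.77 ± 0.32 (Casq2, a calcium store protein), 0.52 ± 0.32 (Myl3, a light chain), -0.16 ± 0.20 (Mb, myoglobin) and -0.30 ± 0.42 (Sln, an inhibitor of the calcium pump), each under the estimate for Tpm3. The difference between the changes of Tpm3 and of these genes was not tested. These arrays read bulk muscle, in which a change in the number of slow fibres and a change in RNA per fibre cannot be told apart. Beside the 15 of 16 groups in which the second array gave the higher Tpm3 signal, it did so in 13 for Myl2, 12 for Tnnt1, 11 for Myh7, 10 for Tnni1, 9 for Tnnc1, 8 for Mb, 7 for Sln, 6 for Casq2, 3 for Myl3 and 1 for Atp2a2.

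The second Tpm3 probe set, 93265_at, was near background. Its signal ran between 11.6 and 100.9, reached 100 on 1 of 36 arrays (wild-type extensor digitorum longus at 10 months) and was therefore not tested across the table. Its mean was 34.3 ± 14.4 on transgenic and 44.9 ± 21.5 on wild-type arrays (SD, n = 18 each), with overlapping ranges in every muscle. The change of 93266_at less that of 93265_at, averaged over muscles, was 0.54 ± 0.24, and a two-sided permutation test with 100000 resamples within muscle and age gave p = 0.025 (adjusted p = 0.025 over 2 such tests). Without the transgenic extensor digitorum longus array of replicate 2 at 7 months the value was 0.42 and the permutation p 0.054. Since 93265_at stayed under 100 on 35 arrays, near background, the difference does not show that the probe sets respond unequally.

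Tpm2, which encodes beta tropomyosin, was the one tropomyosin gene to pass the threshold between genotypes, and it did so in the diaphragm. There its signal on probe set 100605_at was 17683 and 19385 on transgenic arrays at 10 months and 14408 and 13997 at 7 months, against 11399 and 9547 on wild-type arrays at 10 months and 7742 and 11906 at 7 months. Every transgenic array exceeded every wild-type array, a separation that 3.03% of tested probe sets showed in this direction and 1.65% in the other. The means were 16368 ± 2601 in transgenic and 10149 ± 1898 in wild type (SD, n = 4 each), a ratio of 1.61. The log2 change was 0.69 ± 0.17 (95% interval 0.35 to 1.03, adjusted p = 0.0158), where 3.42% of probe sets passed. None of the other 4 tested tropomyosin probe sets passed in the diaphragm. In the same comparison the median change was 0.45 over fast fibre genes, 0.46 over slow fibre genes and 0.41 over troponin genes. It was 0.24 over genes for actins, nebulin and thin filament ends, against 0.003 over all tested probe sets. Smooth muscle genes had a median of 0.03 and cytoskeletal actin genes -0.02. Whether the Tpm2 change exceeds that of other sarcomere genes was not tested.

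The size of this change held on both sets of arrays, at 0.76 on the filled set (adjusted p = 0.109) and 0.63 on the empty set (adjusted p = 0.874), where fewer arrays enter each fit, and it was 0.59 with scan day as a block (adjusted p = 0.131). The call was lost when single diaphragm arrays were left out. Those were wild type 7 months replicate 1 (0.60, adjusted p = 0.113), wild type 10 months replicate 2 (0.62, 0.109), transgenic 7 months replicate 1 (0.71, 0.074), transgenic 10 months replicate 1 (0.69, 0.0573) and transgenic 10 months replicate 2 (0.64, 0.0548). Hepatocyte transcripts also differed between the genotypes in the diaphragm: the mean signal of the 7 markers was 823.5 and 2720 on transgenic arrays at 10 months and 607.6 and 10842 at 7 months, against 5048 and 15049 on wild-type arrays at 10 months and 12853 and 13888 at 7 months. With that signal as a covariate the Tpm2 change was 0.65 (adjusted p = 0.988).

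In the limb muscles the Tpm2 ranges of the genotypes overlapped. In extensor digitorum longus its signal was 16857 on the transgenic array at 10 months and 18442 and 17732 at 7 months, against 12836 on the wild-type array at 10 months and 17548 and 12379 at 7 months (change 0.33 ± 0.19, adjusted p = 0.844). In gastrocnemius it was 11140 and 14406 on transgenic arrays at 10 months and 12573 and 15293 at 7 months, against 11318 and 11041 on wild-type arrays at 10 months and 9608 and 14556 at 7 months. The gastrocnemius change was 0.20 ± 0.17 (adjusted p = 1), and 0.26 without the array whose record names plantaris. In extensor digitorum longus 1 wild-type array reached into the transgenic range, and in gastrocnemius 2 did.

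In plantaris the Tpm2 signal was 21430 on the transgenic array at 10 months and 16062 and 16860 at 7 months, against 19158 on the wild-type array at 10 months and 19383 and 13981 at 7 months. In tibialis anterior it was 16085 and 14047 on transgenic arrays at 10 months and 19775 and 14931 at 7 months, against 17740 and 14237 on wild-type arrays at 10 months and 13781 and 13565 at 7 months. The change was 0.05 ± 0.19 in plantaris and 0.12 ± 0.17 in tibialis anterior, with overlapping ranges in both. Averaged over the 5 muscles, Tpm2 had 0.28 ± 0.08 (interval 0.12 to 0.44, adjusted p = 0.0703), with 14 of 18 transgenic arrays over their muscle's mean in wild type. It passed with the replicate block (0.28, adjusted p = 0.0314), quantile normalization (0.31, adjusted p = 0.0117) and array weights (0.29, adjusted p = 0.0208). These were 3 of 17 alternatives, and a random block for shared mice was among those in which it did not pass. With 1 array left out it passed in 2 of 36 fits. With the limb muscles alone it was 0.18 (adjusted p = 0.436), and the test of a difference between muscles gave F 2.19 (adjusted p = 1).

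**Figure D3:**
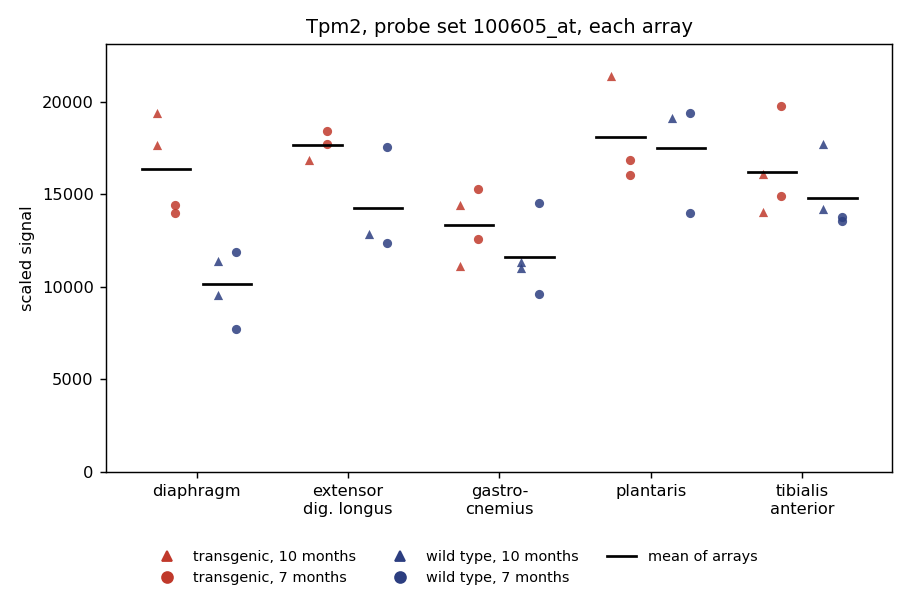
Scaled signal of Tpm2 (probe set 100605_at) on each of the 36 arrays by muscle, on an axis from 0. Transgenic arrays (red) stand left of wild-type arrays (blue), triangles are 10 months and circles 7 months, and black lines are means. The genotypes separate in the diaphragm, at 13997 to 19385 in transgenic and 7742 to 11906 in wild type.

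Across wild-type muscles Tpm2 was highest in plantaris and lowest in diaphragm, with F 6.56 (adjusted p = 0.0086). Across transgenic muscles it was highest in plantaris and lowest in gastrocnemius, with F 2.12 (adjusted p = 0.49). Diaphragm less the mean of the limb muscles was 0.00 ± 0.13 in transgenic (interval -0.27 to 0.28, adjusted p = 0.997) and -0.51 ± 0.13 in wild type (adjusted p = 0.00544). The wild-type difference was -0.65 on the filled set (adjusted p = 0.025) and -0.31 on the empty set (adjusted p = 0.615), and -0.41 with the hepatocyte covariate (adjusted p = 0.707). It missed the threshold without wild-type diaphragm 7 months replicate 1 (-0.42, adjusted p = 0.0625) or 10 months replicate 2 (-0.44, adjusted p = 0.0543). No pair of neighbours in either order separated beyond the spread of the arrays, the largest step being 0.28 in both genotypes (tibialis anterior over gastrocnemius in transgenic, interval -0.06 to 0.62, and plantaris over tibialis anterior in wild type, interval -0.09 to 0.66).

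The genes most like Tpm2 (100605_at) over the 20 group means were Coq10a, which helps coenzyme Q work in the respiratory chain (r = 0.881), Fhl1, a LIM protein of the sarcomere (r = 0.875), and Trp53inp2, which takes part in autophagy (r = 0.869). The likeness to Tpm3 was 0.01 over the same 20 means, beside 0.06 to Tpm1 and 0.20 to Tpm4.

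The second Tpm2 probe set, 161320_r_at, was near background. It reached 100 on 6 of 36 arrays, the fewest the filter allows, with a mean of 56.9 ± 37.9 on transgenic and 77.9 ± 67.0 on wild-type arrays (SD, n = 18 each). Its highest signals were 234.6 on the wild-type extensor digitorum longus array at 10 months and 224.3 on a wild-type plantaris array at 7 months. Its change was -0.20 ± 0.18 on average (adjusted p = 0.585) and 0.30 ± 0.39 in the diaphragm (adjusted p = 0.849), and its correlation with 100605_at over the group means was 0.04. The change of 100605_at less that of 161320_r_at was 0.48 ± 0.17 (two-sided permutation p = 0.011, 100000 resamples, adjusted p = 0.022 over 2 tests). With a pseudocount of 16 it was 0.52 (permutation p = 0.0519). Since 161320_r_at stayed under 100 on 30 of 36 arrays, near background, this difference does not show that the probe sets respond unequally. The diaphragm call thus rests on 1 probe set, with the other near background.

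Tpm1, the gene of the fast and cardiac alpha form, was read by 160532_at alone, with a mean signal of 540 over the 36 arrays. Which Tpm1 transcripts this probe set reads is not known. Its highest wild-type signal was in the diaphragm, where all 11 tested fast fibre genes were lower than in limb muscles. In that comparison 20.8% of the 9322 tested probe sets passed, with 995 lower and 944 higher in diaphragm. In the diaphragm the Tpm1 signal was 656.3 and 632.0 on transgenic arrays at 10 months and 536.1 and 625.9 at 7 months, against 985.4 and 829.3 on wild-type arrays at 10 months and 552.5 and 617.7 at 7 months. In gastrocnemius it was 401.0 and 385.7 on transgenic arrays at 10 months and 382.5 and 430.4 at 7 months, against 551.2 and 475.5 on wild-type arrays at 10 months and 547.5 and 493.5 at 7 months. The gastrocnemius groups did not overlap, as was the case for 0.708% of tested probe sets in this direction and 0.837% in the other. In extensor digitorum longus Tpm1 ran between 428.4 and 524.3 on transgenic and between 462.6 and 548.2 on wild-type arrays, and in tibialis anterior between 372.7 and 572.3 on transgenic and between 329.6 and 710.3 on wild-type arrays.

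The Tpm1 change in gastrocnemius was -0.33 ± 0.19 (adjusted p = 1), and -0.30 without the array whose record names plantaris. Elsewhere it was -0.27 ± 0.19 in tibialis anterior, -0.24 ± 0.19 in diaphragm, -0.09 ± 0.22 in extensor digitorum longus and 0.18 ± 0.22 in plantaris. The average was -0.15 ± 0.09 (interval -0.34 to 0.04, adjusted p = 0.385), with 4 of 18 transgenic arrays over their muscle's mean in wild type. Across muscles the F was 3.25 in transgenic (adjusted p = 0.235) and 1.99 in wild type (adjusted p = 0.345). Diaphragm over limb muscles was 0.32 ± 0.15 in transgenic (adjusted p = 0.248) and 0.43 ± 0.15 in wild type (adjusted p = 0.0483). The wild-type call missed the threshold in 29 of 36 fits that left out 1 array (adjusted p 0.0314 to 0.204) and in 10 of 15 other alternatives. Among these were a pseudocount of 16 (0.45, adjusted p = 0.0517), quantile normalization (0.40, adjusted p = 0.0691) and the hepatocyte covariate (0.19, adjusted p = 0.885). The wild-type difference was 0.32 on the filled set and 0.65 on the empty set. The profiles most like Tpm1 were those of Lilr4b, a receptor of myeloid cells (r = 0.814), Nab1, a corepressor (r = 0.785), and Col14a1, a collagen of connective tissue (r = 0.767).

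Tpm4, the cytoskeletal form, was highest in diaphragm and plantaris in both genotypes. In diaphragm it was 2401 and 2121 on transgenic arrays at 10 months and 1390 and 2195 at 7 months, against 3038 and 1828 on wild-type arrays at 10 months and 1894 and 1764 at 7 months. In gastrocnemius, the lowest, it was 1108 and 1072 on transgenic arrays at 10 months and 792.6 and 882.9 at 7 months, against 1383 and 987.0 on wild-type arrays at 10 months and 1045 and 730.3 at 7 months. Diaphragm and gastrocnemius arrays did not overlap within either genotype, and the share of all tested probe sets with such a separation was not computed. In extensor digitorum longus Tpm4 ran between 1241 and 1365 on transgenic and between 1127 and 1408 on wild-type arrays, and in tibialis anterior between 948.5 and 1303 on transgenic and between 920.4 and 1651 on wild-type arrays. Plantaris means were 1723 ± 196 in transgenic and 1938 ± 380 in wild type (SD, n = 3 each).

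The Tpm4 difference between muscles passed in both genotypes, with F 8.87 in transgenic (adjusted p = 0.00423) and 8.83 in wild type (adjusted p = 0.00167). In transgenic, F was 6.31 on the filled set (adjusted p = 0.132), 5.48 on the empty set (adjusted p = 0.341) and 4.90 with the hepatocyte covariate (adjusted p = 0.157). In wild type it was 6.58 on the filled set (adjusted p = 0.0417), 5.92 on the empty set (adjusted p = 0.175) and 5.03 with the covariate (adjusted p = 0.155). Diaphragm over the limb muscles was 0.64 ± 0.16 in transgenic (adjusted p = 0.00976) and 0.62 ± 0.16 in wild type (adjusted p = 0.00544). The wild-type value was 0.69 on the filled set (adjusted p = 0.0134), 0.58 on the empty set (adjusted p = 0.191), 0.47 without wild-type diaphragm 10 months replicate 1 (adjusted p = 0.0605) and 0.21 with the hepatocyte covariate (adjusted p = 0.88). The one step between neighbours whose interval lay off 0 was plantaris over tibialis anterior in wild type (0.60, interval 0.16 to 1.05), and the array ranges of that pair overlapped. Transgenic plantaris over extensor digitorum longus had ranges that did not overlap (0.41, interval -0.07 to 0.89).

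**Figure D4:**
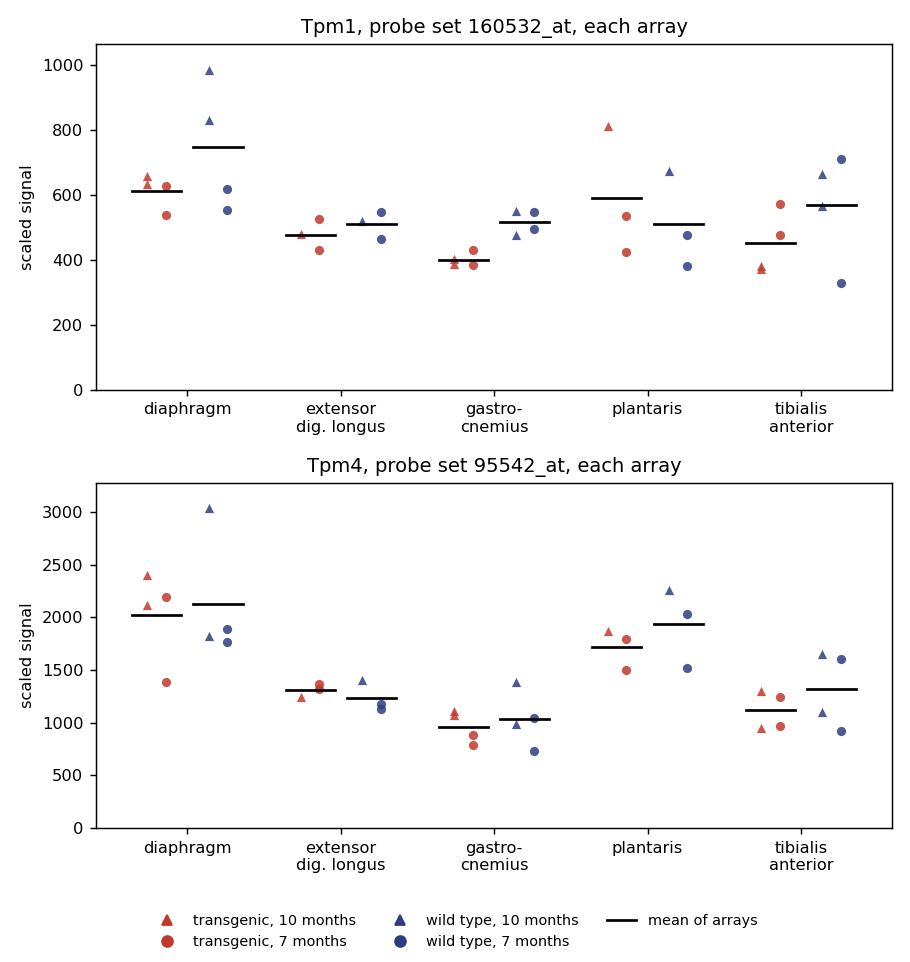
Scaled signal of Tpm1 (160532_at, upper panel) and Tpm4 (95542_at, lower panel) on each of the 36 arrays by muscle, on axes from 0. Transgenic arrays (red) stand left of wild-type arrays (blue), triangles are 10 months and circles 7 months, and black lines are means. Tpm1 separates the genotypes in gastrocnemius, and Tpm4 stands higher in diaphragm and plantaris in both genotypes.

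Between genotypes Tpm4 had the smallest average change, -0.08 ± 0.09 (interval -0.28 to 0.11, adjusted p = 0.662), and its changes in single muscles ran between -0.20 and 0.08. The average was -0.27 on the filled set and 0.12 on the empty set. Eng, an endothelial coreceptor (r = 0.891), Eci1, an enzyme of mitochondrial fatty acid oxidation (r = 0.873), and Crip1, a LIM protein (r = 0.871), had the profiles most like it. Tpm4 and Tpm1 had the highest correlation between members, 0.711 over the 20 group means, while the other pairs of different genes lay between -0.07 and 0.34 apart from Tpm1 with 161320_r_at (-0.18). The summed signal of 5 smooth muscle markers, a cell type known to make Tpm1, Tpm2 and Tpm4, ran between 3418 and 4944 on transgenic and between 2134 and 5390 on wild-type diaphragm arrays, and between 2368 and 6461 on limb arrays. The summed signal of 5 macrophage markers ran between 3846 and 5003 on transgenic and between 3615 and 5446.5 on wild-type diaphragm arrays. On limb arrays it ran between 1255 and 3389.5. The sums of endothelial, fibroblast and adipocyte markers overlapped between diaphragm and limb arrays. The part of these cell types in the tropomyosin profiles was not tested.

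**Figure D5:**
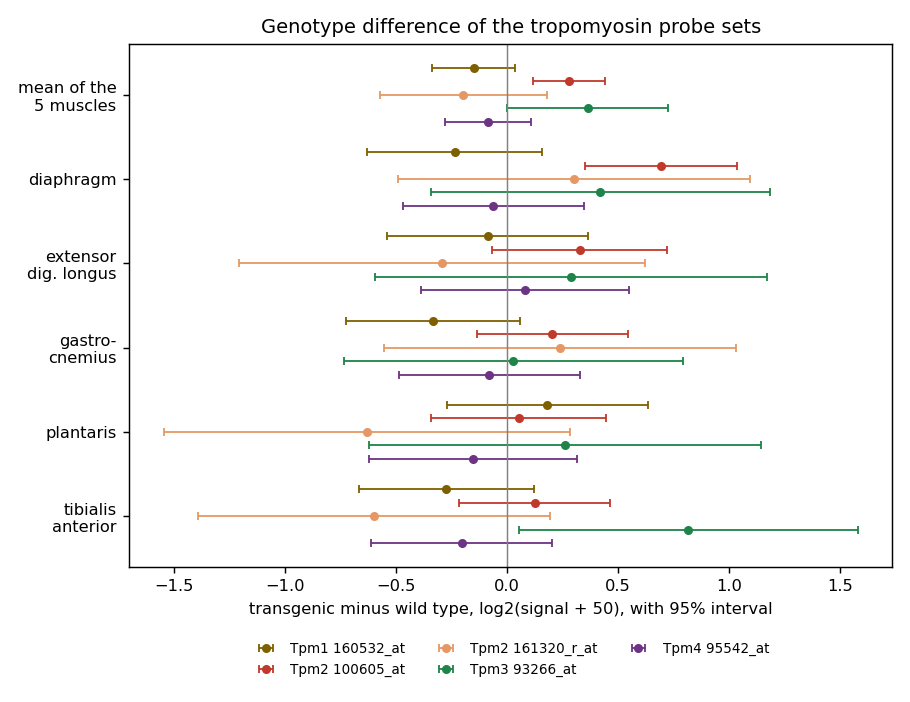
Transgenic minus wild type for the 5 tested tropomyosin probe sets, as the difference of log2(signal + 50) with its 95% interval, averaged over muscles (top) and in each muscle. Tpm2 (100605_at) in the diaphragm, at 0.69, is the one value past the adjusted threshold.

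No tropomyosin probe set passed between 10 and 7 months, on average or in a single muscle, where 0% of the 9322 probe sets passed in limma (776 had an unadjusted p under 0.05 on average). The largest average changes with age, as 10 less 7 months, were 0.23 ± 0.10 for Tpm4 (adjusted p = 0.542) and 0.19 ± 0.09 for Tpm1 (adjusted p = 0.598). In plantaris Tpm1 was 812.4 on the transgenic array at 10 months and 535.5 and 423.9 at 7 months, and 672.0 on the wild-type array at 10 months and 476.1 and 381.0 at 7 months, a change of 0.66 ± 0.23 (adjusted p = 0.995). The array at 10 months was above both 7-month arrays in either genotype, with 1 array each. The share of all tested probe sets with such an order was not computed. In plantaris the 10-month arrays belong to the filled set alone, and the 7-month arrays to both sets. Over all muscles, the second array gave the higher Tpm1 signal in 4 of 16 groups. The difference in the age change between genotypes passed for 0% of probe sets (195 with an unadjusted p under 0.05 in limma). It was 0.55 ± 0.39 for Tpm3 (adjusted p = 1) and between -0.22 and 0.01 for the other 4 probe sets.

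Tropomyosin works with troponin, and its slow subunits are also members of the slow fibre list above. Of the 8 troponin genes, all tested, 2 rose with the transgene on average (Tnni1 by 0.81 ± 0.13, adjusted p = 0.000418, and Tnnt1 by 0.67 ± 0.12, adjusted p = 0.00336) and 0 fell, with a median change of -0.03, the same as over all probe sets. Across wild-type muscles 7 of the 8 differed. Tnnc1, Tnnt1 and Tnni1 ranged over 5.96, 5.76 and 4.20 on the log2 scale, highest in plantaris and lowest in tibialis anterior, and Tnnt3, fast troponin T, over 1.15, highest in tibialis anterior and lowest in diaphragm.

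Of the 12 tested genes (of 20) for actins, nebulin and the thin filament ends, 2 rose on average and 0 fell, with a median of -0.04. They were Xirp1 (1.18 ± 0.15, adjusted p = 1.98e-05) and Nrap (0.85 ± 0.11, adjusted p = 1.46e-05), which both bind actin at sites where thin filaments are built or anchored. Of this list 6 of 12 differed between wild-type muscles, with Actn3, the Z-disc actinin of fast fibres (range 3.82), and Actc1, cardiac actin (1.92), lowest in diaphragm. Capza2, a capping protein (1.67), was lowest there too. None of the 11 tested fast fibre genes (of 13) passed between genotypes (median -0.11), and all 11 differed between wild-type muscles. All 11 were lower in wild-type diaphragm than in limb muscles, as were 995 of all 9322 tested probe sets. Myl1, a fast light chain, had -0.13 ± 0.09 with the transgene (adjusted p = 0.483) and Atp2a1, the fast calcium pump, -0.17 ± 0.10 (adjusted p = 0.373).

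Among the 5 tested of 11 nemaline myopathy genes, 1 rose on average (Tnnt1) and 0 fell, and 3 differed between wild-type muscles (Tnnt1, Tnnt3 and Cfl2, a cofilin of muscle, adjusted p = 0.0102). Of the smooth muscle list, which includes the desmin gene Des, 7 genes (of 8) were tested. None passed between genotypes or in the F test between wild-type muscles. Acta2, smooth muscle actin, had 0.11 ± 0.18 between genotypes (adjusted p = 0.773). In wild-type diaphragm against limb 1 of the 7 passed, as higher, where 20.8% of all probe sets passed. Of 7 tested genes (of 9) for cytoskeletal actin and its partners, 0 passed between genotypes and 1 between wild-type muscles, Tagln2 (adjusted p = 0.0263). Actg1, gamma actin of the cytoskeleton, had -0.01 ± 0.10 (adjusted p = 0.97). The share of these genes past the threshold stands beside the 1.17% of all probe sets for genotype and the 15.1% for wild-type muscles given above.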

How the data were processed

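RNA pooled from mouse muscle was hybridised to 36 Affymetrix MG_U74Av2 arrays (8 micrograms of total RNA each, per the labels). Per the submitters' processing notes the deposited intensity values are MAS5 signals. No source used here gives the version or settings of MAS5. The authors had scaled the arrays, since the deposited 2% trimmed means lay between 1500.93 and 1501.29. Signals were rescaled so that each array's 2% trimmed mean was 500. Values of log2(signal + 50) entered a limma model with a mean for each muscle in each genotype and 1 age effect per muscle (limma version 3.58.1, statmod version 1.5.0, under R version 4.3.3). The 9322 probe sets at 100 or more on at least 6 arrays were tested after 66 controls were left out. Benjamini-Hochberg adjustment ran over all tested probe sets of a comparison, with a threshold of 0.05. A model of 20 means gave the interaction of genotype and age. Arrays have no depth, and their number limits the precision. The script's fit was tested on simulated data.

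Symbols come from the platform annotation, and 10817 of 10833 probe sets with 1 symbol matched the reference by gene ID. Members and gene lists were chosen with earlier results of these data known. Where a listed gene had several probe sets, the one with the highest mean was used. The text names every tropomyosin probe set and the 3 genes of highest Pearson r over group means. For each list the rule picked up to 4 members of largest change past the threshold, or else the 2 of highest signal. Not all of the picked genes are named in the text. Slow fibre genes in tibialis anterior were named after their values were seen. Alternatives were pseudocounts, filters, normalizations, blocks, array weights, a hepatocyte covariate and single arrays left out.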

Additional observations from a re-analysis of the deposited data

How the results depend on the processing

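Among the counts of tropomyosin probe sets past the threshold, those for genotype by muscle, age on average, age in each muscle and genotype by age stayed at 0 under every alternative that could be run. On average over muscles 0 probe sets passed between genotypes, and 1 (Tpm2, 100605_at) with quantile normalization (adjusted p = 0.0117), array weights (0.0208) or the replicate block (0.0314), and 0 to 1 with 1 array left out (1 without wild-type diaphragm 7 months replicate 2 or tibialis anterior 10 months replicate 1). The count for genotype in each muscle was 1, and 0 on either set of arrays alone, with scan day as a block or with the hepatocyte covariate (0 to 1 with 1 array left out). Between wild-type muscles 3 passed, and 1 on the empty set or with the covariate. Between transgenic muscles 2 passed, and 1 on either set or with the covariate. For diaphragm against limb in wild type 3 passed, and 0 on the empty set or with the covariate (1 to 4 with 1 array left out). The covariate follows the diaphragm, and single sets hold fewer arrays; the cause was otherwise not tested. Between the probe sets of Tpm2 the difference was 0.52 with a pseudocount of 16 (permutation p = 0.0519), and between those of Tpm3 it was 0.42 to 0.65 with 1 array left out. With the replicate block, Tpm3 in diaphragm against limb in wild type was 0.68 (adjusted p = 0.0178). Arrays of one replicate number deviated together in most groups, with a correlation over 0.1 in 117 of 120 pairs of groups (median 0.325, lowest 0.0066). The labels do not say that a number marks shared mice. The block was kept as an alternative, so the main model does not allow for this shared deviation. Whether Tpm2 passed between genotypes on average, and Tpm3 in wild-type diaphragm against limb, depended on that choice. On the empty set, age gave no value for extensor digitorum longus, plantaris or the mean over muscles, which lack a second array at 10 months. Scan day gave no value for contrasts it confounds. Signals near 100 limit what 161320_r_at and 93265_at can show.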
